A study of Mus musculus with 12 samples.

Results

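The genes of lipid uptake and lipid droplets described here were 8 genes taken by name for their function: Cd36, Vldlr and Lpl for the uptake of fatty acids and lipoprotein lipid, Plin2, Plin4 and Plin5 for the droplet coat, and Cidea and Cidec for droplet fusion. They were chosen with earlier results of these data known. All were looked up by symbol among the 19938 genes measured on the arrays, and 8 of 8 were present, with 1 probe set each out of 35512. Liver RNA of 12 male C57BL/6N mouse samples of 110 days, taken after 6 hours of fasting, was measured on Affymetrix Mouse Gene ST arrays. KI samples were homozygous for the Lmna G609G knock-in, which models Hutchinson-Gilford progeria in the mouse, and WT samples carried the wild-type gene; both came from crosses of heterozygotes. MR samples received a diet restricted in methionine from 7 weeks of age and CD samples a control diet, and in every group the food was given as solid and crushed pellets. This made 4 groups of 3 arrays, KI_MR, KI_CD, WT_MR and WT_CD. No label ties an array to its own animal. The p-values set group differences against the spread among these arrays, and how far they hold for separate animals is not known.

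Liver takes up lipid both as free fatty acids and as the remnants of lipoproteins. CD36 is a membrane receptor that helps long-chain fatty acids enter cells, the very-low-density lipoprotein receptor encoded by Vldlr binds triglyceride-rich particles that carry apolipoprotein E, and lipoprotein lipase, encoded by Lpl, releases fatty acids from those particles. Healthy adult hepatocytes make little of the last 2 proteins, and Vldlr is known to be induced through the transcription factor ATF4 in stressed mouse liver. Stored triglyceride lies in droplets whose surface is covered by perilipins, and the CIDE proteins move lipid from small droplets into larger ones, which makes their transcripts markers of fatty liver.

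Values are intensities on a linear scale, as deposited, and differences between groups are given as log2 values ± SE, from a single limma fit of all genes, with n = 3 arrays per group, or 6 where a diet or genotype is averaged. A gene was called at an adjusted p (Benjamini-Hochberg over all genes) under 0.05. Array medians ran from 82 to 90 units, and the summed level of 5 hepatocyte markers from 50503 to 55634 on the 12 arrays. Precision is limited by how few arrays there were, and no detection calls were used. Lmna, the targeted gene, had a median of 220 units in KI_MR and 230 units in KI_CD, against 188 units in WT_MR and 168 units in WT_CD. Its average difference with the knock-in was 0.47 ± 0.09 (adjusted p = 0.0319), and a probe set for the gene as a whole does not tell progerin from lamin A. The samples were bulk tissue, in which fewer cells of a type and less RNA per cell cannot be told apart.

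A pair of arrays carried the highest values of several members and also stood apart in other genes. On KI_CD replicate 1 the summed level of 5 measured adipocyte markers was 1017 units, against 373 and 390 on the other KI_CD arrays. Those sums ran from 404 to 615 in KI_MR, from 404 to 451 in WT_MR and from 435 to 671 in WT_CD. On KI_CD replicate 1, 4 of the 5 markers were above the other KI_CD arrays. Retn had 349 units there, against 69 and 68, and Fabp4 464 units, against 127 and 142. Lep lay below the lower quartile of gene levels (45.0 to 51.0 units) on all 12 arrays. The stellate cell sum was 8213 there, against 6258 and 6513 on the other KI_CD arrays, and the cholangiocyte sum was 545 against 328 and 347. The macrophage sum was 7919, against 7040 and 6108, with 8 of 9 markers above the mean of the other KI_CD arrays. For endothelial markers this held for 6 of 7, and their sum was 5351, against 5224 and 6026. Genes of the amino acid response were also high on KI_CD replicate 1: Asns had 2205 units, against 381 and 554 on the other KI_CD arrays, and Ddit3 had 551 units, against 121 and 118. On KI_MR replicate 2 the sum of 4 skeletal muscle genes was 8370 units, against 395 to 806 on the other 11 arrays. The adipocyte sum there was 615, against 424 and 404 on the other KI_MR arrays, the macrophage sum 7723, against 6722 and 6759, and the stellate cell sum 7524, against 6809 and 6737. Other arrays stood out in 1 marker sum: KI_MR replicate 3 had the highest cholangiocyte sum of the 12 arrays (744) and WT_MR replicate 3 the highest macrophage sum (11211). Results that rest on KI_CD replicate 1 or KI_MR replicate 2 are given with and without it, and the part of these other cell types and of the raised amino acid response genes in the results was not tested.

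**Figure D1:**
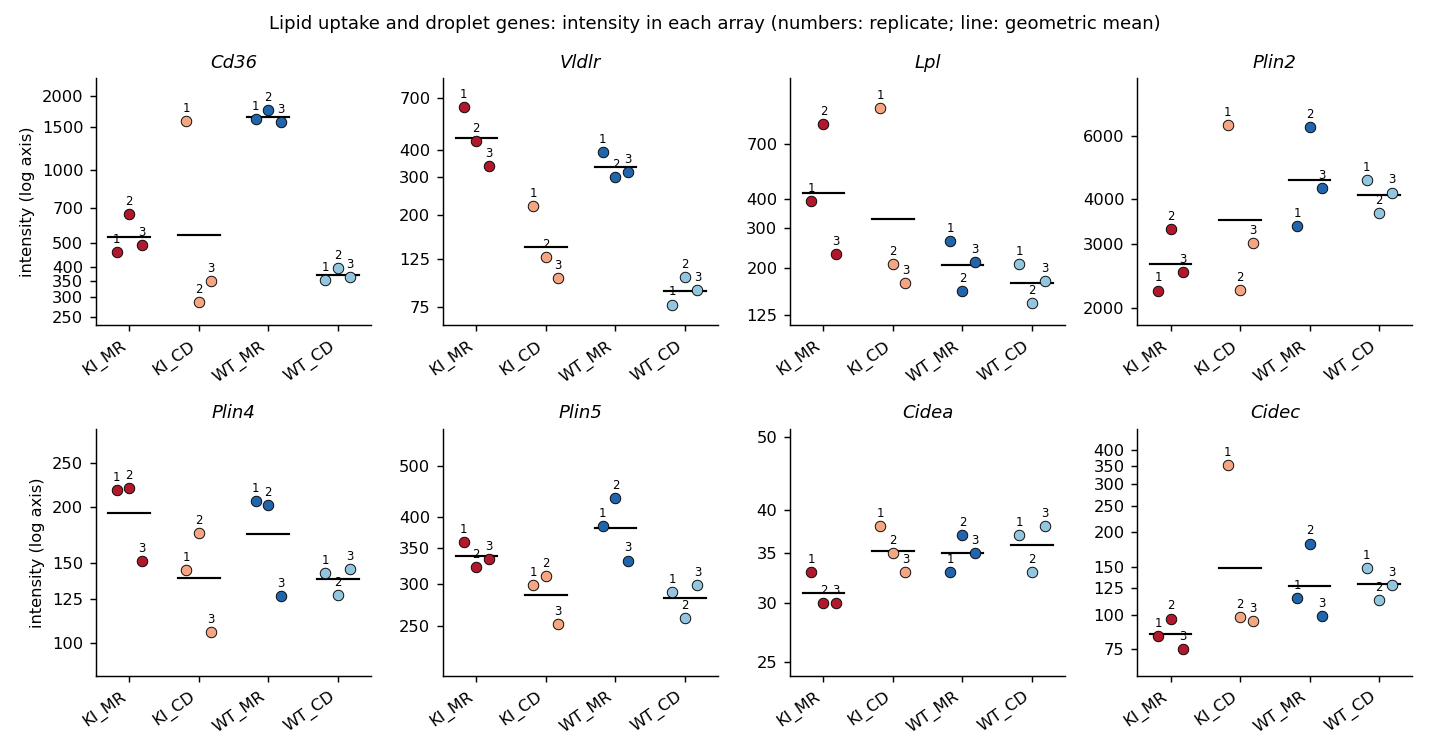
Intensity (log axis) of each of the 8 genes on each of the 12 arrays, by group, with the replicate number above each point and a line at the group's geometric mean. Vldlr is higher in both MR groups than in both CD groups, Cd36 is high in WT_MR and on 1 KI_CD array, and Cidea lies between 30 and 38 units throughout.

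Vldlr was the 1 member called with diet in both genotypes. It rose 3.21-fold with methionine restriction in knock-in liver and 3.73-fold in wild-type liver. The intensities were 637, 440 and 339 in KI_MR, against 221, 128 and 102 in KI_CD. The wild-type values were 391, 301 and 316 in WT_MR, against 77, 103 and 90 in WT_CD. All 6 restricted samples lay above all 6 control-diet samples, and the diet groups did not overlap in either genotype. An order without overlap, higher on restriction, was found for 3.67% of all genes in knock-in and 6.35% in wild-type liver. The gene lies at chr19:27216480-27254231 (GRCm38.p6, plus strand).

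The log2 change of Vldlr was 1.68 ± 0.28 in knock-in liver (limma, adjusted p = 0.0473), where 0.176% of all genes were called. It was 1.90 ± 0.28 in wild-type liver (adjusted p = 0.0173), where 0.326% of all genes were called. No other member was called in either comparison. Averaged over both genotypes the change was 1.79 ± 0.20 (adjusted p = 0.00196), and Vldlr was again the 1 member called, with 1.21% of all genes. The interaction, KI change minus WT change, was -0.22 with a 95% interval from -1.08 to 0.64 (adjusted p = 1.0), so responses that differ by up to about 1 log2 unit in favour of wild type remain within the error. The averaged call was present in 12 of 12 fits that left out 1 array (lowest change 1.67). The wild-type call was present in 7 of them and was lost without any of the 3 WT_MR arrays, WT_CD replicate 1 or WT_CD replicate 3, with changes of at least 1.79 and an adjusted p of up to 0.102. The knock-in call was present in 1, the fit without KI_CD replicate 1 (1.998 ± 0.23, adjusted p = 0.00428). Without any other array it was lost, with changes down to 1.44 and an adjusted p of up to 0.198. Leaving out a wild-type array cannot move the knock-in change itself, only its error and the adjustment. The knock-in call was also lost with median centring (1.71, adjusted p = 0.0552) and in a fit of the 6 compared arrays alone (adjusted p = 0.369).

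With genotype, Vldlr had no called difference. The mean intensity was 472 ± 152 (SD, n = 3) in KI_MR, against 336 ± 48.2 in WT_MR, and 150.3 ± 62.6 in KI_CD, against 90.0 ± 13.0 in WT_CD. The averaged genotype difference was 0.56 ± 0.20 (unadjusted p = 0.0153 and adjusted p = 0.14 by limma). By mean level the groups ran KI_MR, WT_MR, KI_CD and WT_CD, and the groups at either end of this order overlapped with their neighbours: KI_MR replicate 3 lay under WT_MR replicate 1, and KI_CD replicate 3 lay 1 unit under WT_CD replicate 2. KI_CD replicate 1, at 221 units, was 1.93 times the mean of the other KI_CD arrays.

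Of the genes with a range of at least 1 log2 unit over the arrays, 1712 in all, those whose levels followed Vldlr most closely over the 12 arrays were Slc3a2 (Pearson r = 0.966), Slc22a27 (r = 0.945) and Gars (r = 0.935). These correlations are descriptions and share the 12 arrays and the diet contrast. Slc3a2 encodes the heavy chain of several amino acid transporters, Slc22a27 a member of an organic ion transporter family, and Gars a glycyl-tRNA synthetase. The diet change of Slc3a2 was 0.96 in knock-in liver and 0.98 in wild-type liver on the log2 scale.

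Genes of the amino acid response, a programme that liver cells switch on when an amino acid is short, were listed as neighbours of Vldlr. Of 18 such genes 10 were called higher with methionine restriction averaged over genotypes, and 0 lower, where 0.607% of all genes were called higher. The median change of the 18 was 0.67, against -0.01 over all genes. By sign alone, 16 of the 18 were above 0 and 2 below in that average. In wild-type liver 17 were above and 1 below, and in knock-in liver 12 were above and 6 below. Aldh1l2, a mitochondrial folate enzyme, rose by 1.57 ± 0.12 (adjusted p = 2.53e-04). Slc7a11, the cystine transporter that pairs with Slc3a2, rose at least 4.55-fold, a bound in which control-diet values below the lower quartile were raised to it (adjusted p = 9.59e-04). Asns, encoding asparagine synthetase, rose by 2.48 ± 0.34 (adjusted p = 0.00657) and Psat1, a serine synthesis enzyme, by 2.29 ± 0.32 (adjusted p = 0.00669). On the control diet these genes were not low on every array: on KI_CD replicate 1 Psat1 had 296 units, against 70 and 71 on the other KI_CD arrays, Mthfd2 206 units, against 85 and 87, and Slc3a2 2923 units, against 1668 and 1742. Within knock-in liver 3 of the 18 were called (Aldh1l2, Adm2 and Slc7a11), where 0.0602% of all genes were called higher, and within wild-type liver 2 (Aldh1l2 and Slc7a11), where 0.211% were; all were higher. Of these, Aldh1l2 was called in 12 of 12 fits without 1 array in both genotypes. In knock-in liver Adm2 was called in 8 of 12 (adjusted p up to 0.125) and Slc7a11 in 4 (up to 0.167), and in wild-type liver Slc7a11 was called in 10 (up to 0.0615). The arrays without which the call was lost were KI_CD replicates 2 and 3 and KI_MR replicates 1 and 3 for Adm2, these, KI_MR replicate 2 and the 3 WT_CD arrays for Slc7a11 in knock-in liver, and WT_CD replicate 1 and WT_MR replicate 1 for Slc7a11 in wild-type liver. Averaged over genotypes, 8 of the 10 calls were present in 12 of 12 such fits; that of Slc7a5 was lost without WT_CD replicate 1 (adjusted p = 0.052), and that of Atf5 in 8 fits (up to 0.0774), those without KI_CD replicate 2 or 3, KI_MR replicate 1 or 3, WT_MR replicate 1 or any WT_CD array. Atf4 itself was not called (averaged change 0.17, adjusted p = 0.748).

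**Figure D2:**
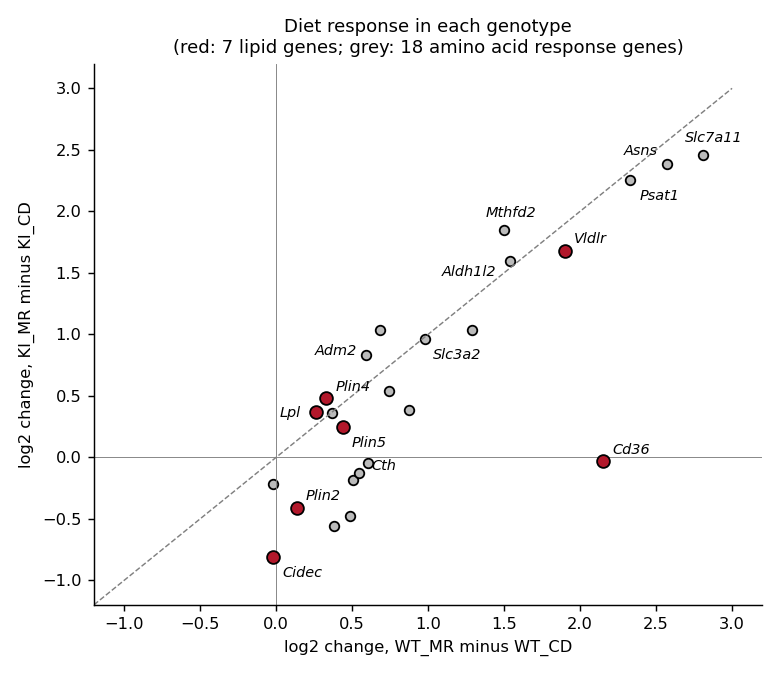
Log2 change with methionine restriction in wild-type liver (horizontal axis) and in knock-in liver (vertical axis), for 7 of the lipid genes in red (Cidea is left out because it was dim on all arrays) and 18 amino acid response genes in grey. The dashed line marks equal changes. Vldlr, at 1.90 and 1.68, lies near that line, and Cd36, at 2.15 and -0.03, lies far from it.

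The promoter windows of RefSeq (GRCm38.p6), from 250 bases before to 50 bases after a start site, were searched on both strands for TGATGCAA, the core of a known amino acid response element. Windows were available for 6 of the 8 members, 9 windows in all, and Vldlr was the 1 member with a match. It lies in the window of the second annotated Vldlr start, 200 bases before that start and 340 bases after the start of the gene, where transcripts from the first start may cover it. Over all windows the motif was found in 294 of 32851 (0.895%). Among the amino acid response genes 15 had a window, and 4 of them held a match, with 2 matches in Slc7a11. Those called with diet averaged over genotypes that had a window but no match were Asns, Slc3a2, Psat1, Phgdh, Mthfd2, Adm2 and Atf5. The sites are shown to set that of Vldlr beside those of the listed genes, of which Slc7a11 was called with diet and Chac1, Atf3 and Nupr1 were not. Each is written 5′ to 3′ on the strand of its gene, with the motif or its reverse complement TTGCATCA in capitals. Only the exact 8 letters of the motif or its reverse complement were searched, so an element with another base would not be found. The lack of a match does not show that a gene has no such element. A match is a description of the letters, not evidence of binding. Vldlr lies on the plus strand at chr19:27216809-27216838, Chac1 on the plus strand at chr2:119351038-119351067, and the others on the minus strand, Atf3 at chr1:191183425-191183454, Nupr1 at chr7:126625562-126625591 and Slc7a11 at chr3:50443661-50443690 and chr3:50443642-50443671.
Vldlr: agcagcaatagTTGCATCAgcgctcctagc
Chac1: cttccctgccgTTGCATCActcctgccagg
Atf3: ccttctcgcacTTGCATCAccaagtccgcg
Nupr1: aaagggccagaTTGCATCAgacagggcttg
Slc7a11 first: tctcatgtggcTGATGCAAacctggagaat
Slc7a11 second: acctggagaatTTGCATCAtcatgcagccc

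The 246 bases directly before the Vldlr gene (chr19:27216234-27216479, plus strand) are shown because Vldlr was the member called. They hold no match to the motif on either strand.
Vldlr upstream: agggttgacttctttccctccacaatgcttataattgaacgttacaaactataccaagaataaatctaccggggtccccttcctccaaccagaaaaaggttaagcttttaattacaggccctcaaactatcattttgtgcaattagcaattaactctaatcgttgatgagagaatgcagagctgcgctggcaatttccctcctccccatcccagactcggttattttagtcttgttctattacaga

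The other motif searched on both strands was the DR1 element, the direct repeat bound by peroxisome proliferator-activated receptors, which are known to drive several of these genes. Its consensus was found in 0.0396% of all windows, and a form with 1 free base in each repeat in 0.381%. Neither was found in the 9 member windows. The E-box CACGTG was found in 7.15% of all windows and, among members, in that of Plin2. The absence of a match says only that these letters are not in these windows.

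Cd36 had its highest levels in restricted wild-type liver. Intensities were 462, 660 and 492 in KI_MR, against 1581, 288 and 351 in KI_CD. Wild-type samples had 1619, 1754 and 1569 in WT_MR, against 353, 397 and 364 in WT_CD. The 3 WT_MR arrays lay above the 3 KI_MR arrays and the 3 WT_CD arrays without overlap, with a spread of 0.08 (SD of log2) among them. Such an order was found for 8.82% of all genes against KI_MR and for 6.35% against WT_CD. KI_CD replicate 1 was 4.97 times the mean of the other KI_CD arrays and reached the WT_MR range, while the other KI_CD arrays lay with WT_CD. The gene lies at chr5:17781690-17888959.

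The diet difference of Cd36 in wild type was 4.44-fold (2.15 ± 0.48 on the log2 scale) and did not pass the threshold in the fit of all arrays (adjusted p = 0.113). In knock-in liver it was -0.03 ± 0.48 (adjusted p = 1.0). On the restricted diet Cd36 was 3.10-fold lower in knock-in than in wild-type liver, at -1.63 ± 0.48 (adjusted p = 0.16), also short of the threshold. In that comparison 0 of 8 members were called, with 0.471% of all genes. The interaction was -2.18 ± 0.68 (95% interval -3.67 to -0.69, unadjusted p = 0.00807, adjusted p = 1.0). By limma 0 genes, or 0.0%, passed for the interaction, and 824 (4.13%) had an unadjusted p under 0.05.

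The spread of KI_CD set the error of each of these Cd36 values: its SD was 1.34 on the log2 scale, against 0.28 in KI_MR and 0.09 in WT_CD. KI_CD replicate 1 enters neither the wild-type diet change nor the genotype difference under restriction, so leaving it out can alter only their pooled error. Without it the wild-type diet change (2.15 ± 0.13) had an adjusted p of 4.89e-05, and the genotype difference on the restricted diet (-1.63 ± 0.13) had an adjusted p of 6.60e-04. Each was called in this 1 of 12 fits without 1 array, and in the others the adjusted p reached 0.353 and 0.462. Without KI_CD replicate 1 the knock-in diet change was 0.74 ± 0.15 (adjusted p = 0.0658), with all 3 KI_MR arrays above both remaining KI_CD arrays. The interaction was -1.41 ± 0.20 (adjusted p = 0.145). In fits of only the 6 compared arrays, in which no knock-in control enters, the wild-type diet change had an adjusted p of 1.97e-04 and the genotype difference under restriction 0.0214. With KI_CD replicate 1 and KI_MR replicate 2 both left out, a setting chosen after their levels were seen, the interaction was -1.57 (adjusted p = 0.0205). Averaged over diets the genotype difference of Cd36 was -0.54 ± 0.34 (adjusted p = 0.35) on all arrays and -0.93 (adjusted p = 0.00232) without KI_CD replicate 1. It was called in that 1 of 12 fits without 1 array, and in the others the adjusted p reached 0.56.

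**Figure D3:**
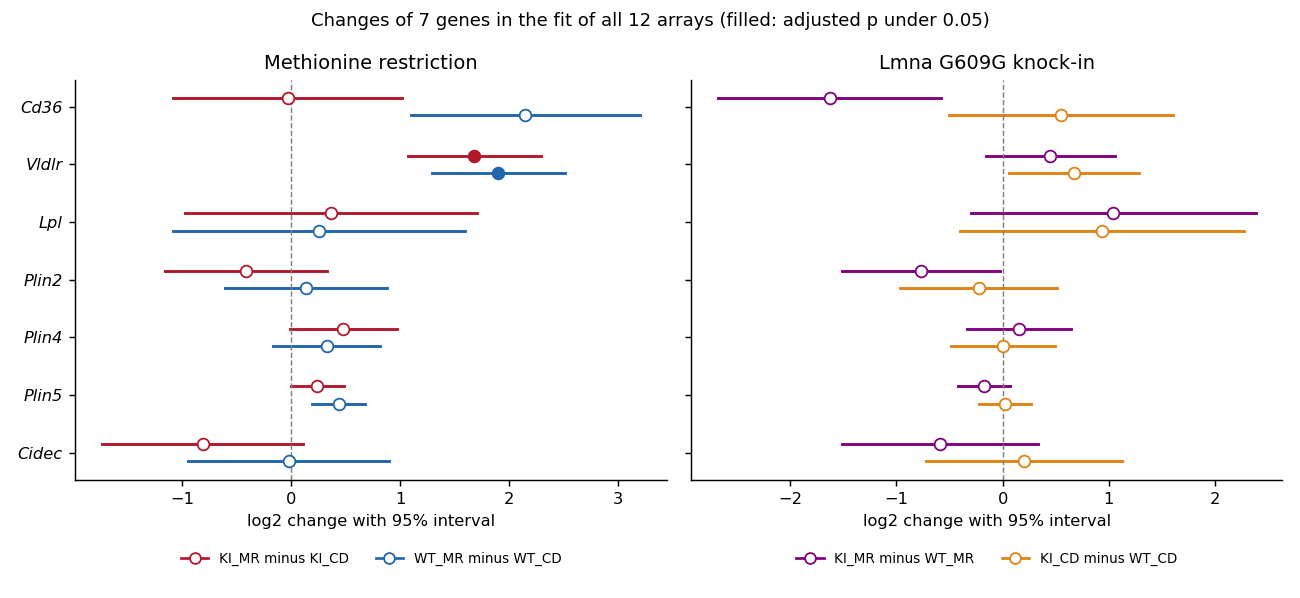
Log2 changes with 95% intervals of 7 genes in the fit of all 12 arrays, for methionine restriction (left, KI_MR minus KI_CD above WT_MR minus WT_CD) and for the knock-in (right, KI_MR minus WT_MR above KI_CD minus WT_CD). Filled points had an adjusted p under 0.05, which held for Vldlr in both diet comparisons, at 1.68 and 1.90, and for no gene in the genotype comparisons.

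Lpl had no called difference in any comparison, and its spread was widest in the knock-in groups. Intensities were 394, 852 and 230 in KI_MR, against 1003, 208 and 171 in KI_CD. In wild type they were 263, 158 and 212 in WT_MR, against 209, 140 and 175 in WT_CD. The highest values were on the arrays that stood apart, KI_CD replicate 1 and KI_MR replicate 2, and in every comparison the groups overlapped. Lpl lies at chr8:68880555-68906932. Averaged over diets the knock-in difference was 0.99 ± 0.43 (unadjusted p = 0.0421 and adjusted p = 0.213 by limma).

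On KI_MR replicate 2, Lpl was 2.83 times the mean of the other KI_MR arrays. On the same array Acta1, Mb and Ckm, transcripts of the contractile and energy machinery of skeletal muscle, were 21.98, 24.74 and 13.31 times the mean of the other KI_MR arrays. Fabp4 had 346 units there, against 171 and 148 on the other KI_MR arrays, and the adipocyte, macrophage and stellate cell sums were above those of the other KI_MR arrays, as given above. Among members Cd36 stood at 1.38 times, Plin2 at 1.39 times and Vldlr at 0.95 times. The part of these other cell types in the Lpl value was not tested. Without that array the knock-in diet difference of Lpl was -0.13, against 0.37 with it, and the genotype difference on the restricted diet was 0.54, against 1.04 with it. On KI_CD replicate 1 Lpl was 5.32 times the mean of the other KI_CD arrays, and the muscle gene sum there was 457 units, beside 454 and 395 on the others.

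**Figure D4:**
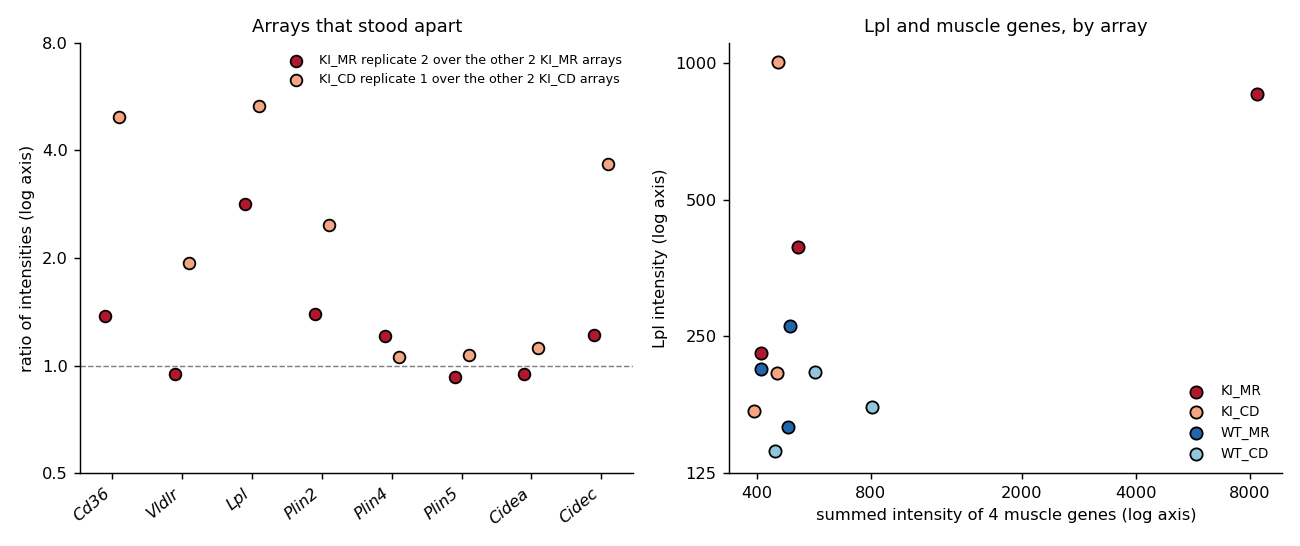
Left, ratio (log axis) of each gene's intensity on KI_MR replicate 2 and on KI_CD replicate 1 to the mean of the other 2 arrays of the same group. Right, Lpl intensity against the summed intensity of 4 muscle genes (both log axes) on the 12 arrays. KI_CD replicate 1 is high for Lpl (5.32), Cd36 (4.97), Cidec (3.66) and Plin2 (2.47), and KI_MR replicate 2 combines a muscle sum of 8370 with an Lpl intensity of 852.

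No perilipin was called in the fit of all arrays as deposited. With array weights Plin4 and Plin5 were called for diet in wild-type liver (adjusted p = 0.0328 and 0.00272) and averaged over genotypes (0.0275 and 0.00486), a setting that put most weight on WT_MR replicate 1. Plin2, the main droplet coat protein of hepatocytes, had intensities of 2231, 3296 and 2515 in KI_MR, against 6412, 2232 and 3024 in KI_CD. In wild type it had 3373, 6333 and 4295 in WT_MR, against 4527, 3664 and 4174 in WT_CD. The highest value of the 12 was that of KI_CD replicate 1. The KI_MR arrays lay below all WT_MR arrays, 3296 against 3373 at the nearest, and the other comparisons overlapped. Plin2 lies at chr4:86626910-86670217.

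The difference of Plin2 between genotypes on the restricted diet was -0.77 ± 0.34 (unadjusted p = 0.0432 and adjusted p = 0.335 by limma). Genes lower in KI_MR without overlap made up 8.82% of all genes, and Cd36, Plin2 and Cidec were among them, of the 8 members. Averaged over diets the genotype difference of Plin2 was -0.50 ± 0.24 (adjusted p = 0.244). Without KI_CD replicate 1 it was -0.72 ± 0.17 and was called (adjusted p = 0.0455). That was the 1 call in 12 fits without 1 array, and in the others the adjusted p reached 0.454. In the average genotype comparison on all arrays 0 of 8 members were called, with 2.81% of all genes, and on the control diet 0 of 8, with 0.0802%.

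Plin5, which holds droplets against mitochondria in tissues that oxidise fat, had narrow groups. Intensities were 359, 323 and 334 in KI_MR, against 299, 310 and 252 in KI_CD. The wild-type values were 386, 435 and 332 in WT_MR, against 290, 259 and 298 in WT_CD. All 6 restricted samples, from 323 to 435, lay above all 6 control-diet samples, from 252 to 310, as was so for 0.401% of all genes. Vldlr was the other member with this order. The gene lies at chr17:56111597-56117606.

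The diet difference of Plin5 was 0.24 ± 0.11 in knock-in liver (adjusted p = 0.641) and 0.44 ± 0.11 in wild-type liver (adjusted p = 0.172). Averaged over genotypes it was 0.34 ± 0.08, or 1.27-fold, with an unadjusted p of 0.00112 and an adjusted p of 0.0669 by limma, just short of the threshold. It passed after each array was centred on its median (0.36, adjusted p = 0.0325) and with array weights, as given above. Of 12 fits without 1 array it passed in 1, that without WT_MR replicate 3 (0.39, adjusted p = 0.0327). In the others the adjusted p reached 0.164. It did not pass with quantile normalization (adjusted p = 0.111), a filter on dim genes (0.0578), another variance prior (0.0814) or a replicate block (0.0736). KI_CD replicate 1 was 1.07 times the mean of the other KI_CD arrays for Plin5 and 1.06 times for Plin4, so that array did not stand apart in these genes.

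Plin4, a perilipin best known from fat cells and muscle, had intensities of 218, 220 and 152 in KI_MR, against 145, 175 and 106 in KI_CD. Wild-type samples had 206, 202 and 127 in WT_MR, against 143, 128 and 146 in WT_CD. KI_MR replicate 3 lay within the range of KI_CD, and WT_MR replicate 3 lay 1 unit below the lowest WT_CD array. The averaged diet difference was 0.40 ± 0.16 (unadjusted p = 0.0261 and adjusted p = 0.341 by limma). Plin4 lies at chr17:56100587-56109948, next to Plin5 in the genome, and its averaged genotype difference was 0.08 ± 0.16 (adjusted p = 0.776).

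Of the droplet fusion genes, Cidec had intensities of 84, 97 and 75 in KI_MR, against 353, 98 and 95 in KI_CD. In wild type they were 115, 182 and 99 in WT_MR, against 148, 113 and 129 in WT_CD. The array KI_CD replicate 1 was the highest of the 12, at 3.66 times the mean of the other KI_CD arrays. The KI_MR arrays lay below all WT_MR arrays, with 97 against 99 at the nearest. That difference was -0.59 ± 0.42 (adjusted p = 0.528), and the diet difference in knock-in liver was -0.81 ± 0.42 (adjusted p = 0.733). Without KI_CD replicate 1 that diet difference was -0.19. Cidec lies at chr6:113424634-113435760.

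Cidea, which is known from brown fat and from steatotic liver, had intensities of 33, 30 and 30 in KI_MR, against 38, 35 and 33 in KI_CD. The wild-type values were 33, 37 and 35 in WT_MR, against 37, 33 and 38 in WT_CD. On each of the 12 arrays this was under the lower quartile of that array's genes, so no fold is given, and the gene was called in no comparison.

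On KI_CD replicate 1, then, Lpl, Plin2 and Cidec were above all 11 other arrays and Cd36 above 9 of them. Vldlr was above 5 of them, and Plin4 and Plin5 above 4 each. The share of all genes that were highest on this array is not given here, so these counts have no background. Its mean correlation with its group, 0.9855, was the lowest of all arrays. Pparg, a nuclear receptor that drives lipid storage, was chosen after its values were seen, and its part in these levels was not tested. It had 1044 units on this array, against 232 and 266 units on the other KI_CD arrays. Its other values were 775, 603 and 683 in KI_MR, 769, 762 and 675 in WT_MR, and 458, 244 and 237 in WT_CD. The diet difference of Pparg was 0.77 ± 0.46 in knock-in liver (adjusted p = 0.809) and 1.30 ± 0.46 in wild-type liver (adjusted p = 0.419). All WT_MR arrays were above all WT_CD arrays, as was so for 6.35% of all genes.

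Measured genes of other uptake routes (transporters, fatty acid binding proteins and lipoprotein receptors) numbered 13. With methionine restriction averaged over genotypes 1 fell and 0 rose, where 0.602% of all genes were called lower and 0.607% higher. The gene that fell was Lrp1, the large remnant receptor of hepatocytes, at -0.51 ± 0.08 (adjusted p = 0.0151), the opposite direction to Vldlr. This call was lost without KI_MR replicate 1 (-0.47, adjusted p = 0.0505). Lrp1 intensities were 2302, 2856 and 2200 in KI_MR, against 3853, 4445 and 3537 in KI_CD. Wild-type samples had 2532, 2836 and 2643 in WT_MR, against 3059, 3349 and 3734 in WT_CD, so that the diets did not overlap in either genotype. An order without overlap, lower on restriction, was found for 6.99% of all genes in knock-in and 5.17% in wild-type liver. Fabp5, a fatty acid binding protein also made by macrophages, had a difference of -1.19 ± 0.30 (adjusted p = 0.0989). The median of the list was -0.07, against -0.01 over all genes.

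With the knock-in averaged over diets, 1 of the 13 fell and 0 rose, where 0.838% of all genes were called lower and 1.98% higher. Fabp1, the abundant fatty acid binding protein of hepatocytes, was at -0.38 ± 0.08 (adjusted p = 0.0411), with 6941, 6775 and 6667 units in KI_MR, against 7790, 8949 and 8413 in WT_MR, and 7843, 5311 and 6765 in KI_CD, against 9092, 8455 and 9342 in WT_CD. The groups did not overlap on either diet. Lower in knock-in without overlap were 10.4% of all genes on the control diet and 8.82% on the restricted diet. The call was present in 3 of 12 fits without 1 array (those without KI_CD replicate 1, KI_CD replicate 2 or WT_MR replicate 3) and otherwise lost, with an adjusted p of up to 0.102. Scarb1, the receptor for high-density lipoprotein, had a difference of 0.56 ± 0.14 (adjusted p = 0.0601).

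Of 7 measured genes that regulate lipases, 1 fell with methionine restriction averaged over genotypes, where 0.602% of all genes were called lower. The gene that fell was Lmf1, whose product matures lipoprotein lipase, at -0.31 ± 0.06 (adjusted p = 0.0253). With the knock-in averaged over diets 1 of the 7 fell, Lipg, the endothelial lipase gene, at -1.33 ± 0.30 (adjusted p = 0.0407). There 0.838% of all genes were called lower. No gene of this list rose. Lmf1 was called in 4 of 12 fits without 1 array (without KI_CD replicate 1, KI_MR replicate 2, WT_CD replicate 2 or WT_MR replicate 3) and Lipg in 1 (without WT_MR replicate 3). In the others the adjusted p reached 0.0778 for Lmf1 and 0.0957 for Lipg. Angptl4, an inhibitor of lipoprotein lipase, was at -0.66 ± 0.23 in KI_MR against WT_MR (adjusted p = 0.224).

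Among 20 further droplet genes, 0 were called with diet averaged over genotypes, where 1.21% of all genes were called. With the knock-in averaged over diets 2 fell, where 0.838% of all genes were called lower. Both encode proteins that help droplets bud from the endoplasmic reticulum. Fitm2 was at -0.62 ± 0.11 (adjusted p = 0.0228), with 279, 319 and 281 units in KI_MR, against 444, 629 and 382 in WT_MR, and 323, 280 and 286 in KI_CD, against 388, 412 and 499 in WT_CD. All 6 knock-in samples lay below all 6 wild-type samples for this gene, as was so for 0.657% of all genes. Fitm1 was at -1.38 ± 0.31 (adjusted p = 0.0421), with 180, 436 and 191 units in KI_MR, against 513, 683 and 975 in WT_MR, and 164, 200 and 205 in KI_CD, against 946, 292 and 335 in WT_CD. Its highest KI_MR value was on the array with high muscle genes. Fitm2 was called in 10 of 12 fits without 1 array (lost without KI_CD replicate 3 or KI_MR replicate 3, adjusted p up to 0.0648). Fitm1 was called in 3 (without KI_MR replicate 2, WT_CD replicate 2 or WT_MR replicate 3, otherwise up to 0.109). Hsd17b13, a droplet enzyme of hepatocytes, had an averaged diet difference of 0.29 ± 0.07 (adjusted p = 0.0661). The median of the 20 genes for the knock-in was -0.11, against -0.04 over all genes.

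Srebf1, the transcription factor of fatty acid synthesis, was the 1 of 15 regulators called under restriction between genotypes, with 0.471% of all genes. It had 1318, 1287 and 1309 units in KI_MR, against 615, 610 and 447 in WT_MR, a difference of 1.24 ± 0.21 (adjusted p = 0.0401). On the control diet Srebf1 was not called, with 993, 937 and 1542 units in KI_CD, against 1387, 1104 and 838 in WT_CD. Its knock-in difference averaged over diets was called (0.65 ± 0.15, adjusted p = 0.0463), but that average includes the difference under restriction, and the control-diet groups overlapped. Ppara, the nuclear receptor of fatty acid oxidation, fell by 0.37 ± 0.08 averaged over diets (adjusted p = 0.0335). In that average 1.98% of all genes were called higher and 0.838% lower. The Srebf1 and Ppara calls were sensitive to single arrays. The Srebf1 call under restriction was present in 5 of 12 fits without 1 array (any KI_CD array, WT_CD replicate 1 or WT_CD replicate 3) and otherwise lost, with an adjusted p of up to 0.172. Averaged over diets Srebf1 was called in 2 (without KI_CD replicate 1 or WT_MR replicate 3, otherwise up to 0.108) and Ppara in 3 (without these or KI_MR replicate 1, otherwise up to 0.0883). Fgf21, a hormone of the fasted liver, had 117, 87 and 69 units in KI_MR, against 225, 449 and 217 in WT_MR, and 250, 76 and 72 in KI_CD, against 89, 80 and 89 in WT_CD. As for Cd36, its WT_MR arrays lay above its KI_MR and WT_CD arrays without overlap, orders found for 8.82% and 6.35% of all genes. On KI_CD replicate 1 Fgf21 also reached the WT_MR range. The Fgf21 interaction was -2.03 ± 0.61 (unadjusted p = 0.00674, adjusted p = 1.0 by limma). With diet averaged over genotypes 0 of the 15 were called on all arrays, with 1.21% of all genes. Fgf21 and Pparg were called without KI_CD replicate 1, a fit that called 470 genes, against 241 on all arrays.

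Over the 8 members the median log2 difference was 0.11 for KI_MR minus KI_CD, 0.29 for WT_MR minus WT_CD, -0.18 for KI_MR minus WT_MR and 0.11 for KI_CD minus WT_CD. Over all genes the same medians lay between -0.05 and 0.00. These comparisons share groups, so their medians are not independent of each other.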

How the data were processed

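Per the labels' protocols, total RNA from about 30 mg of frozen liver was extracted with Trizol and RNeasy columns, biotin-labelled and hybridised, 1 array per sample. The deposited intensity values were whole numbers on a linear scale (10 to 20042); the sources used here do not give how the authors corrected background, summarised probes or scaled arrays. They were log2-transformed and not rescaled.

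Of 35512 probe sets, 21789 had 1 gene symbol in the platform annotation, 1621 several and 12102 none. The brightest probe set stood for each gene, which gave 19938 genes, 19856 of them matched to RefSeq by Entrez identifier. Using limma 3.58.1 under R 4.3.3, the 4 group means were estimated from 12 arrays and variances moderated by eBayes (8 residual and 3.14 prior degrees of freedom). Tests were two-sided and p-values adjusted by Benjamini and Hochberg's method across the 19938 genes of a comparison. The fit was also run on simulated data with the same spread in every group and no array standing apart. That run does not cover arrays such as KI_CD replicate 1. With 3 arrays against 3, exact permutation p-values stop at 0.1, so none was used. A level below its array's lower quartile of genes was taken as dim; a bound raises dim arrays to that quartile. Tables used Python 3.11.15 and pandas 2.3.3.

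The members and lists were chosen with earlier results of these data known. All members are named, and of each other list the genes called and up to 2 with the smallest p per comparison; those given array by array beyond that rule, Pparg and Atf4 were chosen after their values were seen. Some genes of these lists are not reported here. The alternatives were quantile normalization, median centring, a filter on dim genes, averaged probe sets, another variance prior, array weights, the compared arrays alone, a replicate block and each array left out. The labels give no batch.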

Additional observations from a re-analysis of the deposited data

How the results depend on the processing

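The Vldlr diet call averaged over genotypes was present in all fits run. Counts of the 8 members called moved as follows. In KI_MR minus KI_CD, 0 were called with median centring (Vldlr 1.71, adjusted p = 0.0552) and with the compared arrays alone (adjusted p = 0.369), and 0 to 1 with each array left out. In WT_MR minus WT_CD, 2 (Cd36 and Vldlr) were called with the compared arrays alone or with KI_CD replicate 1 and KI_MR replicate 2 both left out, 4 (with Plin4 and Plin5) with array weights, and 0 to 2 with each array left out. In KI_MR minus WT_MR, 1 (Cd36) was called in each of these 3 settings, and 0 to 1 with each array left out. For the interaction, 1 (Cd36) was called with both arrays left out. Averaged over genotypes, 2 were called for diet with median centring (Plin5 and Vldlr) and with both arrays left out (Cd36 and Vldlr), 4 with array weights, and 1 to 2 with each array left out. Averaged over diets, 1 (Cd36) was called for genotype with array weights, 2 (Cd36 and Plin2) with both left out, and 0 to 2 with each left out. Array weights put 16.7 on WT_MR replicate 1 and 0.29 to 1.45 on the others. Over all genes they moved the calls to 2204 from 65 in WT_MR minus WT_CD and to 4612 from 94 in KI_MR minus WT_MR. The averaged diet calls moved to 1369 from 241 and the averaged genotype calls to 4801 from 561. The cause of the other moves was not tested.

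No value that was called turned sign. Among uncalled values that did, array weights gave Cd36 0.41 in KI_MR minus KI_CD, Plin2 -0.23 in WT_MR minus WT_CD, Cidec -0.14 in KI_CD minus WT_CD, Plin4 -0.05 in KI_MR minus WT_MR, interactions of 0.052 for Plin2 and -0.072 for Plin4, and Plin4 -0.013 averaged over diets. Cidec in WT_MR minus WT_CD was 0.018 with quantile normalization and 0.003 with median centring, and Plin5 in KI_CD minus WT_CD was -0.057 with quantile normalization. With both arrays left out, Cd36 was 0.59 in KI_MR minus KI_CD, and KI_CD minus WT_CD gave -0.22 for Cd36, -0.027 for Plin4, -0.012 for Plin5 and -0.42 for Cidec, with 0.12 for the interaction of Vldlr and 0.001 for Plin2 averaged over genotypes.

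With each array left out, uncalled values crossed 0 as follows. In KI_MR minus KI_CD, Cd36 ranged from -0.49 to 0.74, Lpl from -0.13 to 1.18 and Plin2 from -0.74 to 0.026. In WT_MR minus WT_CD, Plin2 ranged from -0.11 to 0.35 and Cidec from -0.28 to 0.16. In KI_CD minus WT_CD, Cd36 ranged from -0.22 to 1.01, Plin2 from -0.66 to 0.10, Plin4 from -0.16 to 0.20, Plin5 from -0.04 to 0.11 and Cidec from -0.42 to 0.53. Plin4 in KI_MR minus WT_MR ranged from -0.073 to 0.33. Interactions ranged from -0.46 to 0.097 for Vldlr, -0.39 to 0.91 for Lpl and -0.076 to 0.33 for Plin4. Averaged over genotypes Plin2 ranged from -0.30 to 0.08, and averaged over diets Plin4 from -0.035 to 0.18.

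The replicate block changed no call of the 8 members: Vldlr had adjusted p-values of 0.0438 in knock-in liver, 0.0179 in wild-type liver and 0.00334 averaged over genotypes. Same-numbered arrays of different groups had correlated deviations of -0.06 to 0.24, with 9 of 18 over 0.1, short of every pair, so the numbers were not taken as pairs; 11 of 12 arrays correlated best with their own number, a hint from the data of shared structure. The block moved the calls over all genes to 960 from 561 for the averaged genotype effect and to 177 from 94 for KI_MR minus WT_MR. Among list genes the calls of Fitm1 and Srebf1 (genotype averaged over diets) and of Adm2 and Slc7a11 (knock-in diet) were absent with it, and Scarb1 (averaged genotype), Hsd17b13 (averaged diet), Lrp1 and Mthfd2 (knock-in diet), and Phgdh and Slc3a2 (wild-type diet) were called.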
